A study of Homo sapiens with 6 samples.

Results

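HMOX1 and 9 further genes of the NRF2 antioxidant response were read in RBE cholangiocarcinoma cells. They were SRXN1, OSGIN1, NQO1, GCLC, GCLM and TXNRD1 among the targets, and the regulators NFE2L2, KEAP1 and BACH1. The 10 genes were listed by symbol, as heme oxygenase, glutathione and thioredoxin genes with their regulators, out of 16200 genes in the deposited table. All 10 passed the filter on low counts, which left 12565 tested genes. The study examined KCNQ3, a voltage-gated potassium channel subunit, in cholangiocarcinoma lines, with RNA-seq as a search for downstream pathways. Poly(A)-selected RNA was sequenced from 3 libraries labelled sgKCNQ3 and 3 labelled NC, all from RBE, a human line from an intrahepatic bile duct cancer. The sources used here do not say what NC stands for, which effector the guide worked with, where it binds, whether the cells were 1 clone or a pool, or how long after guide delivery RNA was taken. They do not state separate cultures for the libraries of a group either, and p-values here cover only the spread between these libraries.

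NRF2, the transcription factor encoded by NFE2L2, is held at a low level by KEAP1, which presents it to a ubiquitin ligase built on CUL3 for degradation. Oxidants and electrophiles modify KEAP1, NRF2 accumulates, pairs with a small MAF protein and binds antioxidant response elements, where the heme-sensing repressor BACH1 competes with it, most of all at HMOX1. HMOX1 encodes the inducible heme oxygenase, which splits heme into biliverdin, iron and carbon monoxide, while other NRF2 targets supply glutathione, reduced thioredoxin and NADPH. NRF2 and KEAP1 act largely through protein stability, which mRNA levels do not report.

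Promoter sequences of 4 targets are shown because a response element is what ties these genes to NRF2. SRXN1 and OSGIN1 were chosen for the size of their change, GCLM and TXNRD1 for windows that hold a match. Each runs from 250 bases before to 50 bases after a RefSeq transcript start (GRCh38.p14), 5′ to 3′ on the gene's strand. The core of the antioxidant response element was searched as TGACNNNGC and the AP-1 element as TGANTCA, on both strands, and matches are in capitals. The AP-1 element reads the same on both strands and can overlap the longer element. The windows are chr20:653151-653450, minus strand (SRXN1), chr16:83952990-83953289, plus strand (OSGIN1), chr1:93909381-93909680, minus strand (GCLM) and chr12:104215529-104215828, plus strand (the first of 2 entries for TXNRD1).
SRXN1: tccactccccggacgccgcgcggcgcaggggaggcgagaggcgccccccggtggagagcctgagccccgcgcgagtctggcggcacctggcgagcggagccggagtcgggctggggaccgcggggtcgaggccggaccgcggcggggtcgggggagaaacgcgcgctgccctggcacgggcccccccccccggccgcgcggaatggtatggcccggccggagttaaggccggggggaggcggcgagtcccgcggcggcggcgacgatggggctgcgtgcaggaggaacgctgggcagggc
OSGIN1: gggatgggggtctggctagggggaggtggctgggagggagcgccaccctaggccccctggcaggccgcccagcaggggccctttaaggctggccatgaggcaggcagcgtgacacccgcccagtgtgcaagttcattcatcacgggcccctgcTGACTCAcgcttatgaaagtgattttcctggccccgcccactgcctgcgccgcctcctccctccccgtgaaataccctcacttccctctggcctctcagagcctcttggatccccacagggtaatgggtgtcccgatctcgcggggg
GCLM: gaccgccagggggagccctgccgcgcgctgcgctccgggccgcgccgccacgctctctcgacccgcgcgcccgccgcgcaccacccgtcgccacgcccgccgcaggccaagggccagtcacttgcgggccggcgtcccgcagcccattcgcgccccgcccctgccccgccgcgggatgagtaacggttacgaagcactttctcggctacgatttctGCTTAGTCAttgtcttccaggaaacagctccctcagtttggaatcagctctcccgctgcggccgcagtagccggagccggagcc
TXNRD1: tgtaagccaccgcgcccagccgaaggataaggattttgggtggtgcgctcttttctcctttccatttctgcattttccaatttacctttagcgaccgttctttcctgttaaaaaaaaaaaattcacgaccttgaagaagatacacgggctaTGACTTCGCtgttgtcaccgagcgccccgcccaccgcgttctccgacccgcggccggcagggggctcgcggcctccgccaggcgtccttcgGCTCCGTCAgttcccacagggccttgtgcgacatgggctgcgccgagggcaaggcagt
In the GCLM window the match lies on the opposite strand, 34 bases before the start. The TXNRD1 window held a match 99 bases before the start and a second, on the opposite strand, 8 bases before it. The OSGIN1 window held an AP-1 element 97 bases before the start, and the SRXN1 window held neither motif. Over the 9 members matched in the RefSeq table by symbol, with 14 entries, the longer element was in the windows of 3 (GCLM, TXNRD1 and KEAP1). It was in 13.35% of the 35116 promoter windows of the table, and in 18.71% of the 13007 genes of the deposited table with a window. The AP-1 element was in those of 2 members (OSGIN1 and BACH1), against 7.71% of all windows. HMOX1 had no entry under its symbol. A match is a description of these letters, and response elements outside the windows were not searched.

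Library totals were 15685137 to 15722455 estimated counts in the sgKCNQ3 libraries and 15601283 to 16089500 in the NC libraries. The 10 genes together took 0.243% to 0.249% of the counts in sgKCNQ3 libraries and 0.263% to 0.271% in NC libraries. KCNQ3 itself had 222, 206 and 191 reads in the sgKCNQ3 libraries and 256, 257 and 252 in the NC libraries, a log2 fold change of -0.33 (SE 0.0841, edgeR adjusted p = 0.00446), so the targeted transcript was lower and still counted in every library. On the length-scaled TPM values the KCNQ3 call was lost (log2 fold change -0.15), and with the length trend removed the fall was larger (-0.48). Among cholangiocyte markers the keratin KRT7 averaged 1440 ± 37.7 CPM in sgKCNQ3 cells and 1404 ± 17.7 CPM in NC cells, and KRT8 1028 ± 35.9 CPM in sgKCNQ3 cells and 844 ± 25.8 CPM in NC cells. KRT8, KRT18 and the transcription factor gene SOX9 were called higher (log2 fold changes 0.28, 0.16 and 0.18). The CFTR marker had 2 or 3 reads per library. CPM is the count scaled to a common library total after TMM scaling, and groups are given as mean ± SD over 3 libraries.

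HMOX1 had the largest fall of the 10 genes in sgKCNQ3 cells. It had 394, 398 and 495 reads in the sgKCNQ3 libraries and 816, 865 and 870 in the NC libraries, or 24.8, 25.2 and 31.0 CPM in the sgKCNQ3 libraries, against 52.9, 54.6 and 55.6 CPM in the NC libraries. Every sgKCNQ3 library was below every NC library, and sgKCNQ3 replicate 3 was the highest of its group. The means were 27.0 ± 3.46 CPM in sgKCNQ3 cells and 54.4 ± 1.37 CPM in NC cells, a log2 fold change of -1.01 (SE 0.0681, edgeR adjusted p = 7.87e-11). HMOX1 fell by 50.4%, and its interval of 2 SE ran from -1.15 to -0.87. Only 8 of the 12565 tested genes had a smaller p-value, and 30 genes, HMOX1 included, had a log2 fold change at or below its own. The gene lies at chr22:35380361-35394214 on the plus strand (GRCh38, GENCODE release 29), has 5 exons in its longest coding transcript and overlaps no annotated gene. Bulk RNA cannot tell fewer cells with the transcript from less transcript per cell.

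HMOX2, the constitutive heme oxygenase, was lower too, by a smaller step. It averaged 63.9 ± 4.84 CPM in sgKCNQ3 cells and 76.4 ± 1.80 CPM in NC cells (log2 fold change -0.26, SE 0.0522, edgeR adjusted p = 5.87e-04), and the groups did not overlap. Within a library the TPM ratio of HMOX1 to HMOX2 was 0.434, 0.377 and 0.514 in sgKCNQ3 cells, against 0.748, 0.725 and 0.738 in NC cells. All 3 ratios of the sgKCNQ3 libraries were below those of the NC libraries. The 2-sided exact permutation p was 0.1, the smallest that 3 against 3 libraries allow, and 0.125 after adjustment over the 5 ratios computed.

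HMOX1 is abundant in macrophages, so leukocyte markers were read beside it. Of 6 markers 3 were tested and 2 were lower in sgKCNQ3 cells, the lysosomal gene CD68 (log2 fold change -0.27) and the receptor CSF1R (-1.21). CSF1R had few reads, 7, 7 and 2 in the sgKCNQ3 libraries and 10, 16 and 11 in the NC libraries. LYZ, the other tested marker, was not called (log2 fold change 0.13, edgeR adjusted p = 0.799). The summed level of the 6 markers was 72.9 to 78.1 CPM in sgKCNQ3 libraries and 88.6 to 95.9 CPM in NC libraries, nearly all of it CD68. CD163 and CD14 had no reads in sgKCNQ3 libraries and at most 1 read in an NC library, and PTPRC had at most 2 reads in any library. The erythroid globins HBA1, HBA2 and HBB summed to 0.503 to 0.876 CPM in sgKCNQ3 libraries and 0.454 to 1.26 CPM in NC libraries.

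**Figure D1:**
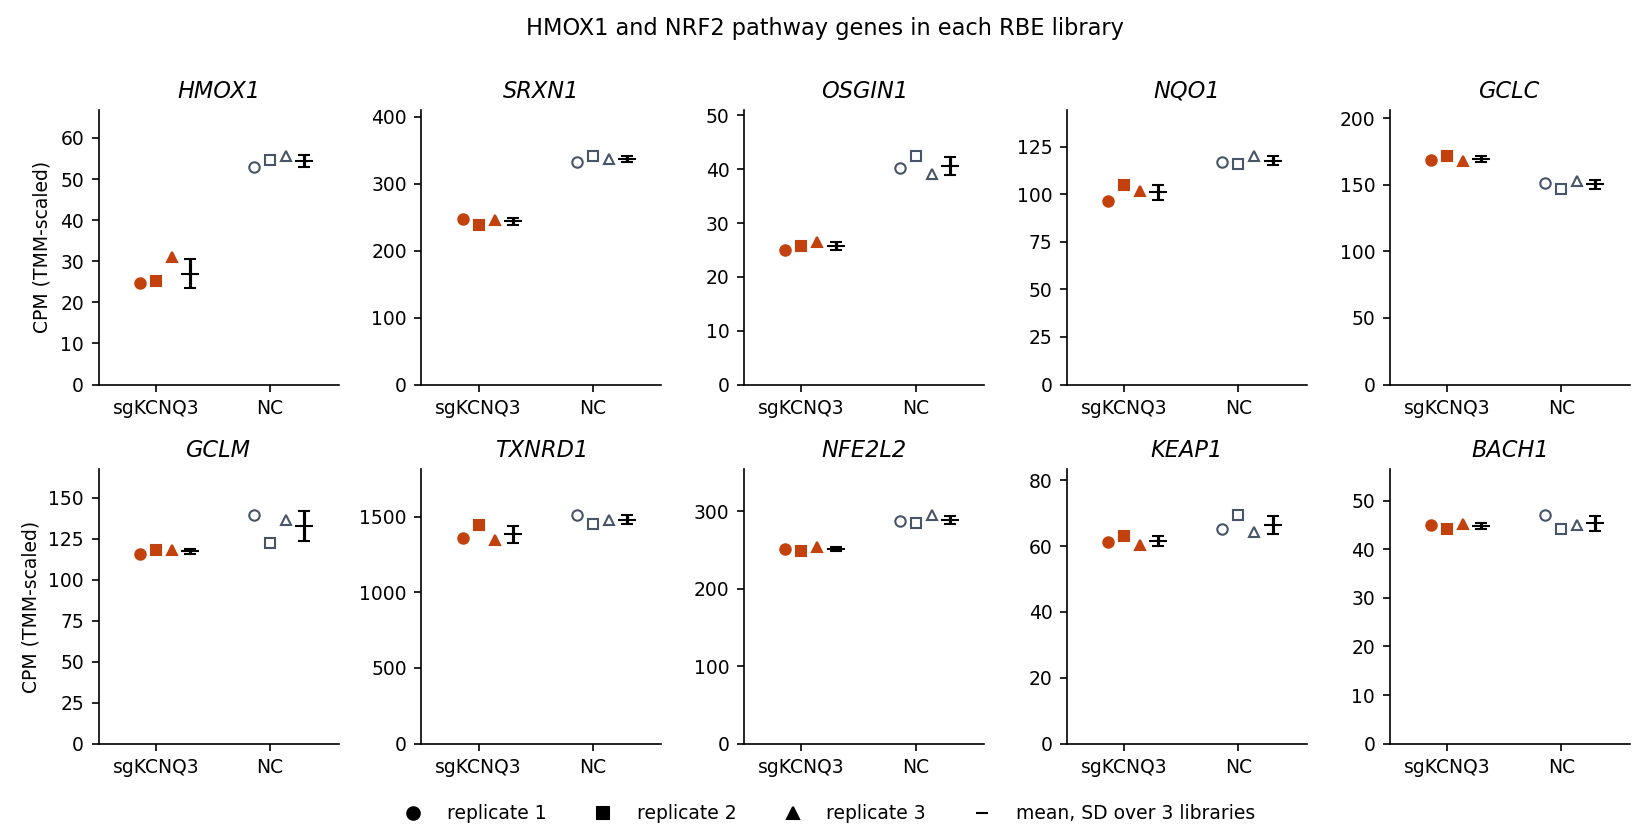
Level of each of the 10 genes in CPM (vertical axes from 0) in the 3 sgKCNQ3 and 3 NC libraries, with the mean and SD of each group. HMOX1 sits at 24.8 to 31.0 CPM in sgKCNQ3 libraries and 52.9 to 55.6 CPM in NC libraries, GCLC is the gene with higher sgKCNQ3 values, and the BACH1 groups overlap.

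SRXN1 and OSGIN1 were the next largest falls among the 10 genes. SRXN1 encodes sulfiredoxin, which restores peroxiredoxins that have been over-oxidised, and it had 247, 238 and 246 CPM in the sgKCNQ3 libraries, against 332, 341 and 337 CPM in the NC libraries. The groups were far apart relative to their spread, and SRXN1 fell by 27.7% (log2 fold change -0.47, SE 0.0365, edgeR adjusted p = 6.16e-10). OSGIN1, an oxidative stress-induced growth inhibitor, had 25.0, 25.8 and 26.4 CPM in the sgKCNQ3 libraries, against 40.3, 42.4 and 39.1 CPM in the NC libraries. No OSGIN1 value of the sgKCNQ3 libraries reached the lowest NC value, and the gene fell by 36.6% (log2 fold change -0.66, SE 0.0614, edgeR adjusted p = 1.47e-08). By p-value 24 tested genes preceded SRXN1 and 48 preceded OSGIN1. SRXN1 lies at chr20:646615-653370 on the minus strand and OSGIN1 at chr16:83948282-83966332 on the plus strand (GRCh38).

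The 2 subunits of glutamate-cysteine ligase, which makes the first intermediate of glutathione synthesis, moved in opposite directions. GCLC, the catalytic subunit, had 168, 171 and 167 CPM in the sgKCNQ3 libraries, against 151, 146 and 153 CPM in the NC libraries. All sgKCNQ3 values exceeded all NC values, and GCLC rose by 12.6% (log2 fold change 0.17, SE 0.0392, edgeR adjusted p = 0.00181). GCLM, the modifier subunit, had 116, 118 and 118 CPM in the sgKCNQ3 libraries, against 139, 122 and 136 CPM in the NC libraries. Its sgKCNQ3 values were close together and just below the lowest NC value, that of replicate 2, and GCLM fell by 11.6% (log2 fold change -0.18, SE 0.0466, edgeR adjusted p = 0.00533). The GCLM call was lost on TPM, where the groups overlapped (log2 fold change -0.08, limma adjusted p = 0.286). The TPM ratio of GCLC to GCLM was 1.96, 1.98 and 1.91 in sgKCNQ3 cells, against 1.46, 1.63 and 1.53 in NC cells. The ratio averaged 1.95 ± 0.0371 in sgKCNQ3 cells and 1.54 ± 0.0853 in NC cells, without overlap (SD, n = 3 each, exact permutation p = 0.1, adjusted 0.125). GCLC lies at chr6:53497341-53616970 and GCLM at chr1:93885205-93909456, both on the minus strand (GRCh38).

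NQO1 and TXNRD1 changed less. NQO1, the quinone reductase used in many cell types as a readout of NRF2, had 96.6, 105 and 102 CPM in the sgKCNQ3 libraries, against 117, 116 and 120.0 CPM in the NC libraries. The groups did not overlap, and NQO1 fell by 14.1% (log2 fold change -0.22, SE 0.0434, edgeR adjusted p = 4.86e-04). TXNRD1, the cytosolic thioredoxin reductase and the most abundant of the 10 transcripts, had 1361, 1445 and 1343 CPM in the sgKCNQ3 libraries, against 1510, 1451 and 1479 CPM in the NC libraries. The highest sgKCNQ3 value, of replicate 2, came close to the lowest NC value, and TXNRD1 fell by 6.57% (log2 fold change -0.10, SE 0.0359, edgeR adjusted p = 0.0412). The TXNRD1 call was lost when any single library other than sgKCNQ3 replicate 2 was left out (log2 fold changes -0.11 to -0.07 over those 5 leave-outs). It was also lost on TPM (-0.01). NQO1 lies at chr16:69706996-69726951 on the minus strand and TXNRD1 at chr12:104215779-104350305 on the plus strand (GRCh38). The TXNRD1 locus overlaps EID3 on the same strand, which had 2 to 5 reads in sgKCNQ3 libraries and 6 to 11 in NC libraries.

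Among the regulators, NFE2L2 was lower while KEAP1 and BACH1 did not pass the test. NFE2L2, which encodes NRF2, had 252, 249 and 254 CPM in the sgKCNQ3 libraries, against 287, 285 and 295 CPM in the NC libraries. The groups were well separated, and NFE2L2 fell (log2 fold change -0.20, SE 0.0364, edgeR adjusted p = 1.88e-04). On TPM the NFE2L2 difference was -0.11 on the log2 scale and missed the threshold (limma adjusted p = 0.0641). KEAP1, the adaptor that marks NRF2 for degradation, had 61.1, 63.1 and 60.3 CPM in the sgKCNQ3 libraries, against 65.3, 69.4 and 64.4 CPM in the NC libraries. Its groups did not overlap in CPM but the log2 fold change of -0.11 was not called (edgeR adjusted p = 0.0995, unadjusted p = 0.0360), with an interval of 2 SE from -0.21 to -0.01. BACH1, the repressor of HMOX1, had 44.9, 44.0 and 45.2 CPM in the sgKCNQ3 libraries, against 47.0, 44.1 and 44.9 CPM in the NC libraries. The BACH1 groups overlapped, and the log2 fold change was -0.02 (edgeR adjusted p = 0.820), with an interval of 2 SE from -0.13 to 0.09. The sign of the BACH1 value was positive on TPM (0.07) and with library-size scaling (0.02). The largest move was downward, to -0.11 with the length trend removed and -0.13 (edgeR adjusted p = 0.0520) with the length and GC trends removed, neither past the threshold. NFE2L2 lies at chr2:177227595-177392697 and KEAP1 at chr19:10486120-10503741 on the minus strand, and BACH1 at chr21:29194071-29630751 on the plus strand (GRCh38). The NFE2L2 locus overlaps AGPS on the opposite strand, which had 1990 to 2053 reads in sgKCNQ3 libraries and 1800 to 1950 in NC libraries. Since strand handling is not given, reads in the overlap cannot be assigned.

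**Figure D2:**
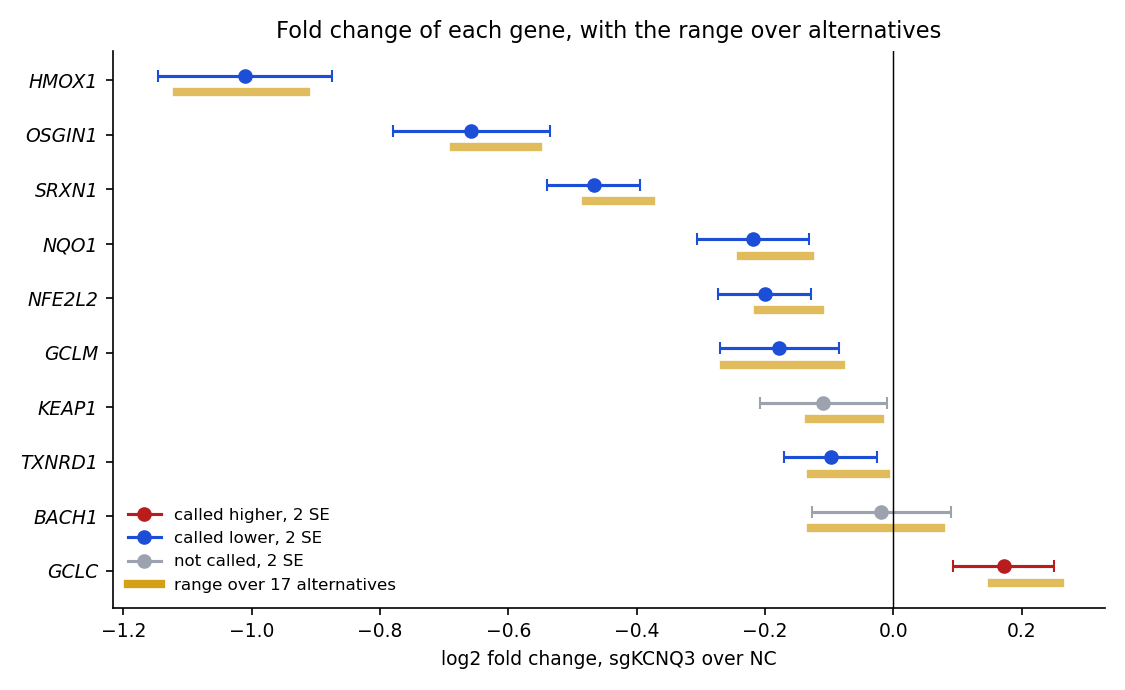
Log2 fold change of each gene, sgKCNQ3 over NC (horizontal axis), with 2 SE and, as a bar, the range over 17 alternative analyses. HMOX1, OSGIN1 and SRXN1 lie farthest to the left at -1.01, -0.66 and -0.47, GCLC alone lies to the right with its whole range, and BACH1 straddles 0.

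Of the 10 genes, 7 were called lower, 1 higher and 2 were not called at an adjusted p of 0.05. Over all 12565 tested genes 15.1% were called lower, 14.0% higher and 29.1% in either direction. The median log2 fold change was -0.19 over the 10 genes and -0.01 over all tested genes. The CPM groups did not overlap for 9 of the 10 genes and for 41.7% of all tested genes. HMOX1, SRXN1, OSGIN1, NQO1 and GCLC kept their direction and their call under all 17 alternatives. On log2(TPM + 1) 4 of the 10 were called lower and 1 higher. Of all 12565 tested genes 613 were then called lower and 2588 higher. Across tested genes the log2 fold change was larger for longer transcripts (Spearman rho 0.34 over 12565 genes) and smaller for those with more GC (rho -0.26 over 12509 genes). HMOX1 stood at percentile 14.6 of length and 78.6 of GC, OSGIN1 at 22.6 and 93.1. With both trends removed from each library, HMOX1 had a log2 fold change of -0.93, OSGIN1 -0.58 and SRXN1 -0.44.

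Levels of different genes were compared in TPM, which is scaled by transcript length. In sgKCNQ3 cells the order was TXNRD1 (mean 662 TPM), NFE2L2 (184), SRXN1 (173), GCLC (78.5), NQO1 (72.5), KEAP1 (43.6), GCLM (40.2), HMOX1 (34.0), OSGIN1 (25.1) and BACH1 (13.3), and no neighbours in that order overlapped. In NC cells TXNRD1 (668 TPM), SRXN1 (225), NFE2L2 (199) and NQO1 (79.5) led. GCLC (65.6) and HMOX1 (64.6) followed and overlapped each other, as did KEAP1 (44.2) and GCLM (42.7), before OSGIN1 (37.3) and BACH1 (12.7). HMOX1 stood beside GCLC in NC cells and below GCLM in sgKCNQ3 cells, with 31.3, 31.1 and 39.5 TPM in sgKCNQ3 cells and 62.8, 64.7 and 66.5 TPM in NC cells. SRXN1 stood below NFE2L2 in sgKCNQ3 cells and above it in NC cells.

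**Figure D3:**
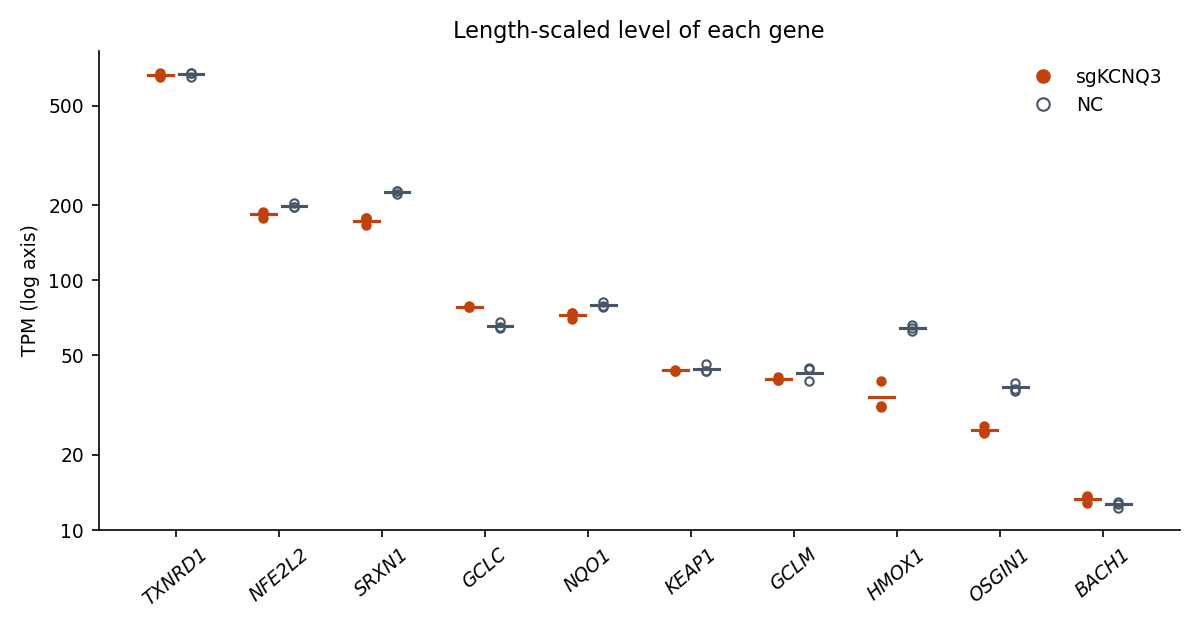
Length-scaled level in TPM (log axis) of the 10 genes in each sgKCNQ3 and NC library. HMOX1 lies at 31.1 to 39.5 TPM in sgKCNQ3 libraries and 62.8 to 66.5 TPM in NC libraries, a visible gap, while the TXNRD1, GCLM, KEAP1 and BACH1 points of both groups mix.

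Targets were also set against NFE2L2 in the same library. The TPM ratio of HMOX1 to NFE2L2 averaged 0.185 ± 0.0222 in sgKCNQ3 cells and 0.325 ± 0.00592 in NC cells. That of SRXN1 averaged 0.943 ± 0.0122 in sgKCNQ3 cells and 1.13 ± 0.0294 in NC cells. Both ratios were lower in every sgKCNQ3 library than in any NC library (exact permutation p = 0.1 each, the smallest possible, 0.125 after adjustment over 5 ratios). The ratio of NQO1 to NFE2L2 was 0.377, 0.414 and 0.394 in sgKCNQ3 cells, against 0.400, 0.399 and 0.399 in NC cells. The NQO1 ratios of the groups overlapped (exact permutation p = 0.7), and a test that cannot go below 0.1 shows neither a difference nor likeness.

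**Figure D4:**
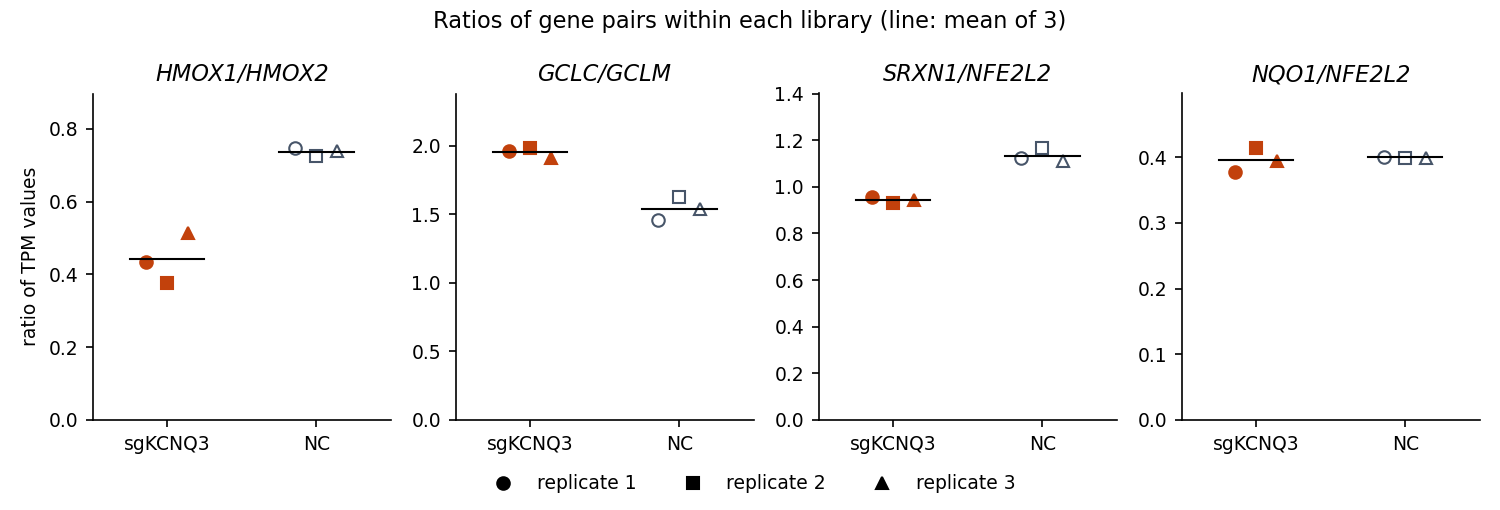
Ratio of TPM values of gene pairs within each sgKCNQ3 and NC library, with the mean of 3 libraries as a line and each vertical axis starting at 0. The ratio of GCLC to GCLM is higher in sgKCNQ3 libraries (1.91 to 1.98) than in NC libraries (1.46 to 1.63), that of HMOX1 to HMOX2 is lower, and that of NQO1 to NFE2L2 overlaps.

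The pathway around these genes was read from lists by role, with 115 tested genes other than the 10. Of these, 32 (27.8%) were called lower, 20 (17.4%) higher and 63 were not called, and their median log2 fold change was -0.04. Over all tested genes 15.1% were lower and 14.0% higher, with a median of -0.01. On log2(TPM + 1) the pathway split was 14 lower and 32 higher with a median of 0.04, and over all tested genes it was 613 lower and 2588 higher with a median of 0.06. The control list, which holds the ligase, kinases, adaptors and DNA-binding partners of NRF2, had 15 tested genes, with 5 lower and 2 higher. All 3 small MAF genes, whose proteins pair with NRF2 or BACH1 on DNA, were lower. MAFF averaged 65.3 ± 1.44 CPM in sgKCNQ3 cells and 97.6 ± 1.26 CPM in NC cells (log2 fold change -0.58, SE 0.0447, edgeR adjusted p = 4.88e-10). MAFK had a log2 fold change of -0.35 and MAFG of -0.31, and all 3 kept their call under every alternative. CUL3, the ligase scaffold (0.13), and GSK3B, a kinase that promotes NRF2 degradation (0.17), were higher. The CUL3 call was not kept by 8 of the 17 alternatives, 4 of them with a single library left out (sgKCNQ3 replicate 1 or 2, NC replicate 1 or 2). Both calls were lost once the length trend was removed (0.10 and 0.04). SQSTM1, the autophagy receptor that sequesters KEAP1, was lower at -0.18, and the NRF2 relative NFE2L1 at -0.12. Both calls were lost on log2(TPM + 1), at -0.09 for SQSTM1 and -0.01 for NFE2L1, and that of NFE2L1 also with library-size scaling (-0.09).

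In heme handling, HMOX2 and BLVRB were lower under every alternative. Of 15 tested genes of heme synthesis, transport and breakdown, 3 (20%) were lower and 1 (6.67%) higher, against 15.1% lower and 14.0% higher over all tested genes, with a median log2 fold change of -0.03. On log2(TPM + 1) the list had 2 lower and 4 higher, against 613 lower and 2588 higher over all tested genes. Besides HMOX2, BLVRB, a biliverdin reductase that acts downstream of heme oxygenase, averaged 30.8 ± 2.62 CPM in sgKCNQ3 cells and 38.2 ± 2.09 CPM in NC cells (log2 fold change -0.31, SE 0.0666, edgeR adjusted p = 0.00104). The lysosomal heme transporter SLC48A1 was lower at -0.21, a call lost on TPM, and the heme exporter FLVCR1 was higher at 0.35, a call that 7 of the 17 alternatives did not keep, 4 of them by leaving out sgKCNQ3 replicate 1 or 3 or NC replicate 1 or 2. Of the 8 genes of heme synthesis, edgeR called 0, 1 had an unadjusted p under 0.05, and DESeq2 and limma-voom also called 0. Of 10 iron genes, 2 were lower and 3 higher. Both ferritin subunits, which store iron, were lower, FTH1 at -0.18 and FTL at -0.13, and both calls were lost on TPM. The FTL call was also lost without NC replicate 3 and with either trend removal. The iron exporter SLC40A1 (0.41), the iron-responsive RNA-binding protein gene IREB2 (0.29) and the importer SLC11A2 (0.16) were higher, and the SLC11A2 call was not kept by 5 of the 17 alternatives, among them the leaving out of sgKCNQ3 replicate 1 or NC replicate 3. Ferritin genes have many processed copies, and how reads mapping to several places were counted is not given.

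Glutathione genes moved in both directions. Of 22 tested, 7 (31.8%) were lower and 3 (13.6%) higher, against 15.1% and 14.0% of all tested genes, with a median of -0.08. The lower calls numbered 5 under RLE and library-size scaling and DESeq2, and on log2(TPM + 1) the split was 3 lower and 4 higher. Over all tested genes the 15.1% lower were 1895 genes, against 1803 under RLE, 1280 with library-size scaling and 1257 with DESeq2. On log2(TPM + 1) all tested genes split into 613 lower and 2588 higher. SLC3A2, the heavy chain of the cystine-glutamate exchanger, averaged 358 ± 11.9 CPM in sgKCNQ3 cells and 482 ± 22.7 CPM in NC cells (log2 fold change -0.43, SE 0.0395, edgeR adjusted p = 1.30e-08). Its partner SLC7A11, named after its value was seen, was lower at -0.20, a call lost on TPM (-0.10). CHAC1, which degrades glutathione, was lower at -0.42, and the glutathione peroxidase GPX1 at -0.20, a call lost on TPM and once both trends were removed. ANPEP, an aminopeptidase that splits the dipeptide left by extracellular glutathione breakdown, averaged 21.1 ± 0.337 CPM in sgKCNQ3 cells and 12.6 ± 0.946 CPM in NC cells and rose at a log2 fold change of 0.75 (SE 0.0802, edgeR adjusted p = 1.39e-07). Glutathione reductase, GSR, was higher at 0.27 and the microsomal transferase MGST1 at 0.19.

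In the thioredoxin and peroxiredoxin list, 8 of 16 tested genes were lower and 2 higher, with a median of -0.13. Those are 50% and 12.5%, against 15.1% and 14.0% of all tested genes. The lower calls numbered 5 with library-size scaling, DESeq2 or either trend removal, and 4 on log2(TPM + 1). Over all tested genes the 15.1% lower were 1895 genes, against 1280 with library-size scaling, 1257 with DESeq2 and 613 on log2(TPM + 1). With the length trend removed 1789 of all tested genes were lower, and with both trends removed 2027. SESN2, a stress-inducible sestrin, averaged 188 ± 3.39 CPM in sgKCNQ3 cells and 249 ± 2.54 CPM in NC cells (log2 fold change -0.41, SE 0.0371, edgeR adjusted p = 1.14e-08). Thioredoxin itself, TXN, was lower at -0.28, and the mitochondrial reductase TXNRD2 at -0.39. The thioredoxin inhibitor TXNIP averaged 209 ± 3.99 CPM in sgKCNQ3 cells and 158 ± 2.95 CPM in NC cells and was higher (log2 fold change 0.40, SE 0.0384, edgeR adjusted p = 2.65e-08), as was the sestrin SESN3 (0.87). Those 5 calls held under all 17 alternatives.

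The detoxification and efflux list had more higher than lower calls, with 6 of 18 tested genes higher and 2 lower and a median of 0.07. Those are 33.3% and 11.1%, against 14.0% higher and 15.1% lower over all tested genes. The same shares over all tested genes stand beside the smaller lists below. All 4 ABCC efflux pumps tested were higher. ABCC2, which exports glutathione conjugates and bilirubin glucuronides into bile, averaged 71.0 ± 1.18 CPM in sgKCNQ3 cells and 57.7 ± 1.34 CPM in NC cells (log2 fold change 0.30, SE 0.0478, edgeR adjusted p = 4.11e-05). ABCC3 was higher at 0.25, ABCC4 at 0.21 and ABCC1 at 0.19, with all 4 smaller once the length trend was removed. ABCC2 was then at 0.20, ABCC3 at 0.16 and ABCC4 at 0.11, all still called, and ABCC1 at 0.08, no longer called. The aldose reductase AKR1B1 (-0.12) and the prostaglandin reductase PTGR1 (-0.16) were lower, calls that 8 and 10 of the 17 alternatives did not keep. Without sgKCNQ3 replicate 3, NC replicate 2 or NC replicate 3 neither was called, and PTGR1 was also lost without sgKCNQ3 replicate 1. Of 8 NADPH-supplying genes, the isocitrate dehydrogenase IDH1 was higher (0.20) and the pentose phosphate enzyme TALDO1 (-0.20) and the glycolysis regulator TIGAR (-0.19) were lower, both calls being lost on TPM. The mitochondrial superoxide dismutase SOD2 was the 1 called gene of 4 in its list (0.24), a call lost with the length and GC trends removed (0.10). Of 7 other targets, FAM117B was higher (0.49) and 3 were lower, the autophagy gene MAP1LC3B (-0.29), TRIM16 (-0.21) and its near copy TRIM16L (-0.16), for which the division of shared reads is not given. The TRIM16L call was not kept by 6 of the 17 alternatives, which were both TPM settings (-0.08), the length trend removed (-0.11) and the leaving out of sgKCNQ3 replicate 1, sgKCNQ3 replicate 3 or NC replicate 2. TRIM16 and TRIM16L together had 3137, 3301 and 3120 reads in sgKCNQ3 libraries and 3414, 3767 and 3498 in NC libraries.

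**Figure D5:**
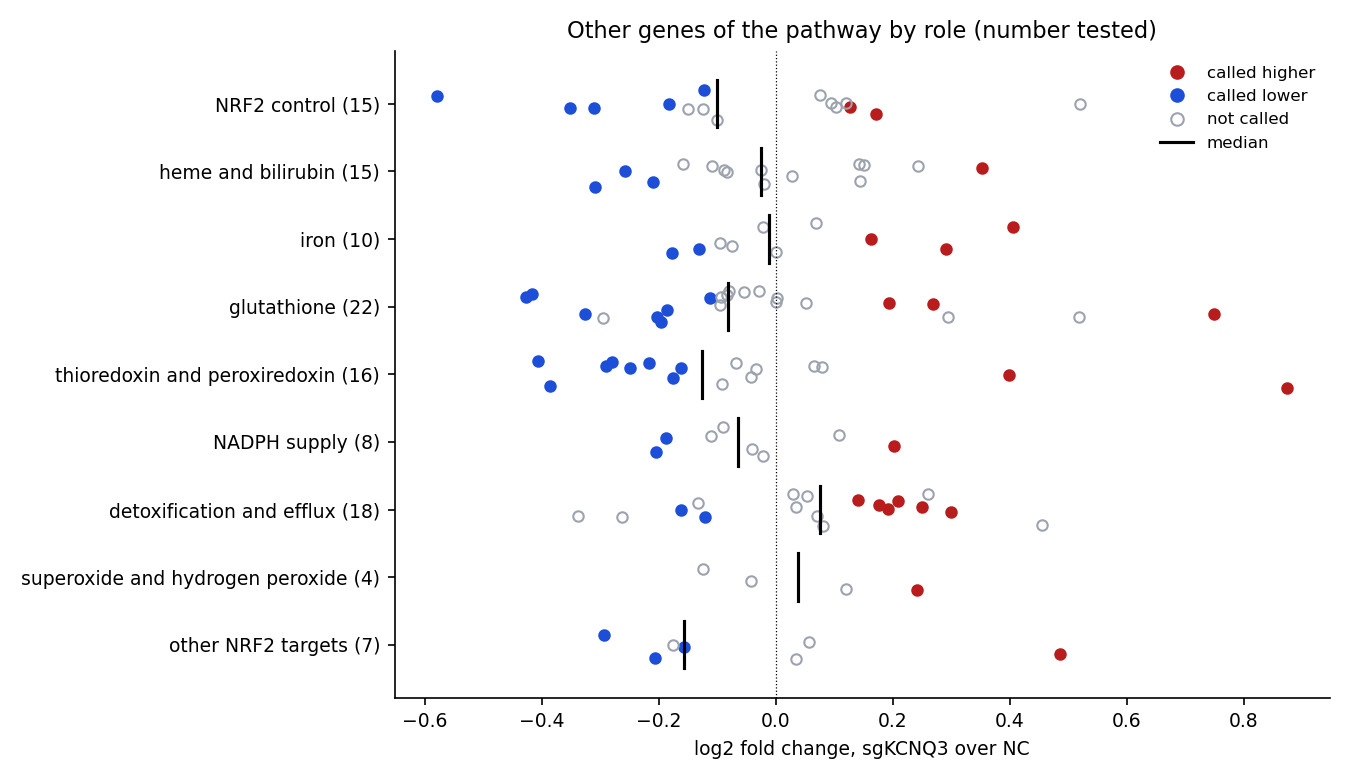
Log2 fold change, sgKCNQ3 over NC (horizontal axis), of the tested pathway genes other than the 10, in rows by role with the number tested, called genes in colour and the median of each row as a line. The thioredoxin and peroxiredoxin row has its median at -0.13 and the detoxification and efflux row at 0.07, and genes called in both directions stand in most rows.

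The genes whose pattern was most like that of HMOX1 were sought by the root mean square distance of log2 CPM, centred on each gene's mean over the 6 libraries. Candidates were the 9893 other protein-coding genes whose mean log2 CPM was 3 or more. The nearest were FST (distance 0.121), CD163L1 (0.138), DKK1 (0.139), PTHLH (0.160) and ROBO4 (0.167). FST encodes the activin antagonist follistatin, and like HMOX1 it was highest among the sgKCNQ3 libraries in replicate 3, with 5.34, 4.82 and 6.57 CPM in the sgKCNQ3 libraries, against 13.2, 12.9 and 13.2 CPM in the NC libraries. CD163L1, a scavenger receptor family gene, had 14.6, 12.8 and 13.3 CPM in the sgKCNQ3 libraries, against 28.2, 28.5 and 27.6 CPM in the NC libraries. The secreted Wnt antagonist DKK1 had 19.9, 18.3 and 19.1 CPM in the sgKCNQ3 libraries, against 33.0, 35.9 and 35.0 CPM in the NC libraries. None of these 3 had overlapping groups, which follows from choosing them for their likeness to HMOX1. The same choice favours the shared peak of FST in replicate 3, where FST had 105 reads, against 85 and 76 in sgKCNQ3 replicates 1 and 2. Over all tested genes 41.7% had CPM groups that did not overlap. PTHLH, which encodes parathyroid hormone-related protein, averaged 13.5 ± 0.593 CPM in sgKCNQ3 cells and 22.6 ± 0.716 CPM in NC cells, and the roundabout receptor gene ROBO4 averaged 13.3 ± 0.578 CPM in sgKCNQ3 cells and 22.3 ± 1.67 CPM in NC cells. Among the 10 genes themselves OSGIN1 (0.203) and SRXN1 (0.291) lay nearest to HMOX1 and GCLC (0.604) farthest.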

How the data were processed

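Titles gave each library its group and replicate number. Per the file headers, the authors deposited estimated counts (expected counts) per gene without normalization, of which 5.53% to 6.33% per library were not whole, beside TPM and FPKM values. FPKM served only to infer the length behind each gene's values. The deposited signal column, the authors' counts divided by 1 factor per library, and their group means, including a whole-number score made by the authors, were not used. The submitters' processing notes name GRCh38.p13. No source used here gives the aligner, the counter, strand handling or the treatment of multiply mapped reads.

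Rounded counts were tested with robust quasi-likelihood F tests of edgeR 4.0.16 (R 4.3.3) after TMM scaling. The default filterByExpr (minimum count 10) removed 3635 of 16200 genes. P-values were adjusted by Benjamini-Hochberg over the 12565 tested genes, and genes under 0.05 were called. Dividing a log2 fold change by the square root of F gave its SE. The edgeR common dispersion gave a coefficient of variation between libraries, beyond counting error, of 3.62%. Since separate cultures are not stated, it may not cover variation between cultures. Chi-square per degree of freedom between pairs of libraries was 1.63 to 4.19 within groups and 6.89 to 11.4 between them, so no pair was 1 library deposited again. An exact permutation test of 3 against 3 libraries cannot go below 0.1. The procedure was tested on simulated counts, with 50 genes changed at each size. It recovered 35 at a log2 fold change of 0.25, 43 at 0.5, 48 at 1 and 50 at 2. Of its 182 calls 6 were false. The simulation held 12507 genes, few of them changed, whereas in the data 29.1% of tested genes were called. These rates may therefore not carry over to the data.

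The 10 genes, the lists and the tests were chosen with earlier results of these data known. Within each role list, the called genes with the smallest p were named, up to 3 in each direction, with HMOX2, KCNQ3 and the 5 genes most like HMOX1. SQSTM1, NFE2L1, SLC7A11 and ABCC1 were named after their values were seen. A marker gene of the cell type is not reported here. Gene positions and GC content came from GENCODE release 29 and promoters from RefSeq.

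Alternatives were other scaling (RLE, library size), other tests (DESeq2 1.42.0, voom in limma 3.58.1, and limma-trend on TPM with a pseudocount of 1 or 0.1), other filters (none, or at least 2 CPM in 3 libraries), a replicate block, single libraries left out, and splines of 5 degrees of freedom that removed each library's trend over length, or over length and GC. The removal of both trends was added after the data had been seen. Figures were drawn with matplotlib 3.10.9.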

Additional observations from a re-analysis of the deposited data

How the results depend on the processing

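Of 170 pairs of a gene among the 10 and an alternative, 152 kept direction and side of the threshold. HMOX1 ranged from -1.12 to -0.92 on the log2 scale, OSGIN1 from -0.68 to -0.55, SRXN1 from -0.48 to -0.38, NQO1 from -0.24 to -0.13 and GCLC from 0.15 to 0.26, each called throughout. TXNRD1 was called in 7 of 17, GCLM and NFE2L2 in 15 (not on TPM), and KEAP1 and BACH1 in 0, by edgeR, DESeq2 and limma alike. BACH1 was positive with library-size scaling (0.0172), on log2(TPM + 1) (0.0686) and log2(TPM + 0.1) (0.0733), and ran from -0.0388 to 0.0074 with single libraries left out. With the length trend removed it was -0.11, and with both trends removed -0.13 (edgeR adjusted p = 0.0520). CUL3 was -0.0102 with length and GC trends removed. On log2(TPM + 1) the 10 genes gave 4 lower calls, the other pathway genes 32 higher and 14 lower, and all genes 2588 higher and 613 lower. On log2(TPM + 0.1) these lower calls were 4, 14 and 610, with 32 pathway genes higher. DESeq2 called 1257 of all genes lower. With library-size scaling all genes split into 2324 higher and 1280 lower and the pathway into 27 and 24. With length and GC trends removed the split over all genes was 1297 higher and 2027 lower. The cause of these shifts was not tested.

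With the replicate block, the 10 genes gave 1 higher and 6 lower calls, the pathway 19 and 29, and all genes 1520 and 1616. Same-numbered libraries did not deviate together (correlations of deviations from the group means 0.01, -0.10 and 0.01), and no library correlated best with its own number. With single libraries left out the 10 genes gave 6 to 7 lower calls and the pathway 25 to 33 lower and 17 to 22 higher. All tested genes then gave 1343 to 1761 lower and 1287 to 1710 higher calls.

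Read counts limit the precision of the low genes. HMOX1 rests on 394 to 495 reads in sgKCNQ3 libraries and 816 to 870 in NC libraries. In the same order, OSGIN1 rests on 398 to 422 and 612 to 672, and BACH1 on 695 to 722 and 698 to 725. For HMOX1 the spread among the sgKCNQ3 libraries (coefficient of variation 12.8%) was also above counting error (4.83%). The smallest shifts called, such as TXNRD1, lie close to the spread between libraries. With 3 libraries a group and no stated separate cultures, nothing is shown about other cultures, guides or lines, and protein and activity of NRF2 were not measured.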

Other observations

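HMOX1 was the member with the widest spread among the sgKCNQ3 libraries. Its coefficient of variation was 12.8% there and 2.52% among the NC libraries, where counting error alone gives 4.83% at the sgKCNQ3 counts and 3.43% at the NC counts. For the other 9 genes the coefficient of variation among the sgKCNQ3 libraries was 1.11% (NFE2L2) to 4.01% (NQO1). Replicate 3 held the high HMOX1 value, with 495 reads against 394 and 398 in replicates 1 and 2. Without replicate 3 the log2 fold change of HMOX1 was -1.12. The NC libraries differed most in GCLM, with a coefficient of variation of 6.98%, against 1.18% among the sgKCNQ3 libraries.

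The related aldo-keto reductases AKR1C1, AKR1C2 and AKR1C3, known as human NRF2 targets, were summed, since how shared reads were divided is not given. The sums were 1130, 1091 and 1186 reads in sgKCNQ3 libraries and 1098, 1143 and 1127 in NC libraries, which overlapped. AKR1C3 held most of these reads, 698 to 754 in sgKCNQ3 libraries and 651 to 696 in NC libraries. Taken singly, AKR1C1 (log2 fold change -0.13), AKR1C2 (-0.26) and AKR1C3 (0.08) were not called.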
